A study of Saccharomyces cerevisiae with 6 samples.

Results

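The aspartate, asparagine and threonine branch of budding yeast (Saccharomyces cerevisiae) was described here through 9 genes, HOM3, HOM2, HOM6, THR1, THR4, ASN1, ASN2, AAT1 and AAT2. They were chosen as the enzymes of the pathway and found by gene symbol, and all 9 were among the 5449 yeast genes measured, with 1 probe set each. The choice was made with earlier results of these data known. Transcripts were measured on 6 Affymetrix arrays, 1 per sample. Of these, 3 held RNA of a gcn4Δ strain (S288C gcn4-delta, MAT a) grown in YNB medium with 0.1 mM 3AT, and 3 held RNA of the wild type (S288C, MAT a) grown in YNB with 10 mM 3AT. 3AT is aminotriazole, an inhibitor of the histidine enzyme His3. All cultures were aerobic chemostats, continuous cultures in which medium inflow sets the growth rate, diluted by 0.10 volumes per hour and kept at 30 °C and pH 5. Strain and 3AT dose changed together, so their parts in any difference below cannot be told apart. The labels do not say whether replicates were separate chemostats, so the spread behind each p-value is that between these samples and may be technical.

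Aspartate is made from oxaloacetate and glutamate by aspartate aminotransferase, which yeast encodes as a mitochondrial enzyme, Aat1, and a cytosolic one, Aat2. Aspartate then takes a short route to asparagine, through the paired asparagine synthetases Asn1 and Asn2, or a longer one to threonine, through Hom3, Hom2, Hom6, Thr1 and Thr4 in that order. Homoserine, the product of Hom6, is also the starting point of methionine. Gcn4 is the activator of amino acid biosynthesis genes under amino acid shortage, a response known as general amino acid control.

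Of the 9 genes, 8 fell in gcn4Δ, 0 rose and 1, HOM6, did not pass the test. Among all 5449 genes, 6.0% were called lower at an adjusted p under 0.05 (limma, Benjamini-Hochberg over all probe sets) and 5.34% higher. The median log2 change was -0.86 over the 9 genes and 0.04 over all genes. For each of the 8 genes that fell, all gcn4Δ arrays lay below all wild-type arrays, an order that 14.6% of all genes showed. HOM3 and ASN1 had the largest falls of the 9, with log2 changes of -1.62 and -1.60, and took places 54 and 59 among the 5449 genes ordered from the largest fall. The other genes that fell took places 145 to 254, and HOM6 took place 2166.

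The arrays gave signal well above background for every member. The median intensity over yeast probe sets was 665 to 712 and the background level, set by probe sets of genes from outside S. cerevisiae, was 17.9 to 25.2, while the lowest member value was 288. Most yeast genes passed this level too, 97.1 to 97.9% of those measured on each array. GCN4 itself read 14.5, 213 and 11.4 in gcn4Δ replicates 1, 2 and 3, against 7312, 7309 and 7248 in the wild type. On gcn4Δ replicate 2, where GCN4 was above background, the members had a median deviation of -0.07 on the log2 scale from the mean of the other gcn4Δ arrays, against -0.06 over all genes. Without that array 7 members were called lower. The 7 MAT a markers were above background on all arrays, with summed intensities of 11634 to 12353 in gcn4Δ and 8272 to 12304 in the wild type. The 4 MATα markers were above background as well, with sums of 693.7 to 726.5 and 604.5 to 934.3. Of these 11 genes 0 passed the test, while 11.3% of all genes passed in either direction, so so few genes can show little. Their part in the results was not tested.

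**Figure D1:**
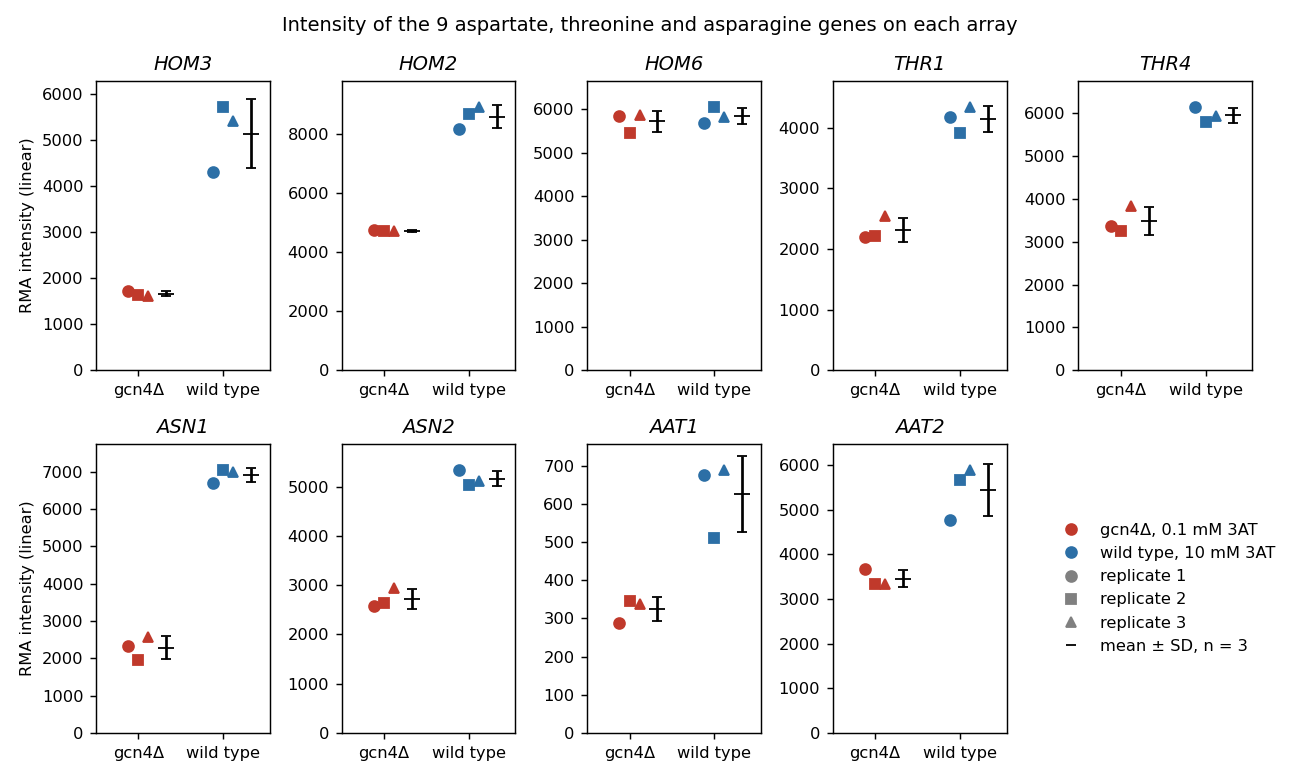
RMA intensity (linear axis from 0) of the 9 genes on each array, gcn4Δ at 0.1 mM 3AT left and wild type at 10 mM 3AT right, with marker shapes for replicate numbers and mean ± SD (n = 3) beside the points. The groups are apart in every panel but that of HOM6, where values run from 5448 to 5861 in gcn4Δ and from 5674 to 6041 in the wild type.

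The threonine route starts with HOM3 (YER052C), which encodes aspartate kinase, the enzyme that threonine inhibits. HOM3 read 1725, 1634 and 1623 in gcn4Δ replicates 1, 2 and 3, against 4299, 5714 and 5418 in the wild type. The gcn4Δ arrays were close together and all low, and wild type replicate 1 was the lowest of its group. The means were 1661 ± 56.5 in gcn4Δ and 5144 ± 747 in the wild type (SD, n = 3 each), so gcn4Δ stood at 32.3% of the wild type. The log2 change was -1.62 ± 0.12 (SE, 95% interval -1.91 to -1.33, adjusted p = 0.000416, limma). Omitting wild type replicate 1 made it -1.75, and omitting wild type replicate 2 made it -1.54.

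HOM2 (YDR158W), for aspartate semialdehyde dehydrogenase, the second enzyme of the route, also fell. It read 4739, 4700.1 and 4701 in gcn4Δ, against 8149, 8689.6 and 8899 in the wild type. Its gcn4Δ values were the tightest of any member, with an SD of 22.2. The log2 change was -0.86 ± 0.08 (SE, 95% interval -1.05 to -0.68, adjusted p = 0.000938, limma).

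HOM6 (YJR139C), for homoserine dehydrogenase, the enzyme that makes homoserine, did not pass. It read 5845, 5448 and 5861 in gcn4Δ, against 5674, 6041 and 5821 in the wild type. The groups overlapped, the lowest and the highest values being 5448 and 6041. The log2 change was -0.03 ± 0.08 (SE, adjusted p = 0.82, limma), and its 95% interval of -0.22 to 0.16 did not overlap that of any other member. Its value was between -0.05 and 0.00 when any 1 array was left out.

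After homoserine the route to threonine has 2 steps, homoserine kinase (THR1, YHR025W) and threonine synthase (THR4, YCR053W), and both genes fell. THR1 read 2194, 2213 and 2543 in gcn4Δ, against 4171, 3908 and 4337 in the wild type. THR4 read 3358, 3252 and 3844 in gcn4Δ, against 6139, 5789 and 5927 in the wild type. Both were highest in replicate 3 among the gcn4Δ arrays, and both groups stayed apart. The log2 change of THR1 was -0.84 ± 0.10 (SE, 95% interval -1.07 to -0.61, adjusted p = 0.00275, limma). That of THR4 was -0.78 ± 0.09 (SE, 95% interval -1.0 to -0.55, adjusted p = 0.00358, limma).

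To set the steps of the threonine route against each other, the log2 ratio of consecutive genes was taken within each array. The level of such a ratio depends on the probes, so only its difference between the groups is read. These pairs were added after the values were seen, so their p-values are descriptive. Ratios that follow each other in the route share a gene (HOM2, HOM6 or THR1), so the 4 pairs are not separate results. The HOM2 over HOM6 ratio was -0.30, -0.21 and -0.32 in gcn4Δ, against 0.52, 0.52 and 0.61 in the wild type, a difference of -0.83 ± 0.04 (SE). The HOM6 over THR1 ratio differed by 0.81 ± 0.09 in the other direction, at 1.31 ± 0.10 in gcn4Δ and 0.50 ± 0.11 in the wild type (SD, n = 3 each). The HOM3 over HOM2 ratio was -1.51 ± 0.04 in gcn4Δ and -0.75 ± 0.16 in the wild type (SD, n = 3 each), a difference of -0.76 ± 0.10 (SE). In these 3 pairs the groups did not overlap, and each gave an exact two-sided permutation p of 0.10, adjusted to 0.13 over 4 pairs, where 0.10 is the smallest p that 3 arrays against 3 allow. For THR1 and THR4, neighbours in the route, the ratio differed by only -0.06 ± 0.04 (SE, exact permutation p = 0.30, adjusted p = 0.30) and the groups overlapped.

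**Figure D2:**
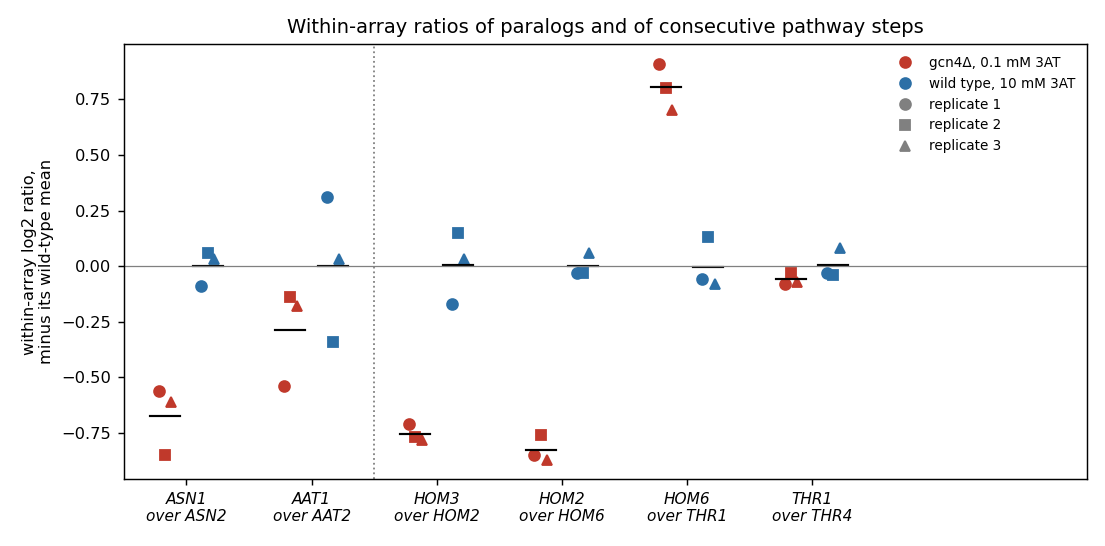
Log2 ratio of paired genes within each array, set to 0 at the wild-type mean, for the paralog pairs (left of the dotted line) and consecutive steps of the threonine route (right), with gcn4Δ left of wild type in each pair, shapes for replicates and black bars for group means. The groups are apart for ASN1 over ASN2 and for 3 of the 4 step pairs, and overlap for AAT1 over AAT2 and THR1 over THR4.

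Both asparagine synthetase genes fell, and ASN1 had the larger log2 change. Their enzymes transfer the amide nitrogen of glutamine to aspartate. ASN1 (YPR145W) read 2330.1, 1965 and 2572 in gcn4Δ, against 6704, 7046 and 6983 in the wild type. ASN2 (YGR124W) read 2573, 2640.1 and 2943 in gcn4Δ, against 5338, 5042 and 5109 in the wild type. The spread of ASN1 lay mainly among the gcn4Δ arrays, where replicate 2 was lowest. The means of ASN1 were 2289 ± 306 in gcn4Δ and 6911 ± 182 in the wild type, and those of ASN2 were 2719 ± 197 in gcn4Δ and 5163 ± 155 in the wild type (SD, n = 3 each). The log2 change was -1.60 ± 0.11 for ASN1 (SE, 95% interval -1.87 to -1.33, adjusted p = 0.000344, limma). It was -0.93 ± 0.09 for ASN2 (SE, 95% interval -1.14 to -0.72, adjusted p = 0.00114, limma).

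The ASN1 over ASN2 log2 ratio was -0.14, -0.43 and -0.19 in gcn4Δ, against 0.33, 0.48 and 0.45 in the wild type. Every gcn4Δ array lay below every wild-type array. The changes of the paralogs differed by -0.68 ± 0.10 (SE), or 1.60-fold more for ASN1, with an exact two-sided permutation p of 0.10, the smallest possible, and an adjusted p of 0.20 over the 2 paralog pairs. Omitting gcn4Δ replicate 2 made the difference -0.59, and omitting gcn4Δ replicate 1 made it -0.73. Neither probe set carries the suffix that Affymetrix gives to sets shared by several genes, and binding of one paralog's RNA to the other's probes was not tested.

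Both aspartate aminotransferase genes fell as well. AAT1 (YKL106W), for the mitochondrial enzyme, read 288, 346.3 and 337.6 in gcn4Δ, against 675.7, 511.5 and 688.2 in the wild type. AAT2 (YLR027C), for the cytosolic enzyme, read 3676, 3336 and 3342 in gcn4Δ, against 4775, 5658 and 5887 in the wild type. The wild-type arrays were spread for both genes, AAT1 being lowest in replicate 2 and AAT2 lowest in replicate 1. The log2 change of AAT1 was -0.94 ± 0.14 (SE, 95% interval -1.28 to -0.60, adjusted p = 0.00899, limma). That of AAT2 was -0.65 ± 0.11 (SE, 95% interval -0.91 to -0.40, adjusted p = 0.0125, limma), the smallest fall of the 8. The call of AAT2 was lost without gcn4Δ replicate 2, at -0.63 (adjusted p = 0.0595, limma).

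Between the aminotransferase paralogs no difference in change was detected with these arrays. The AAT1 over AAT2 log2 ratio was -3.67, -3.27 and -3.31 in gcn4Δ, against -2.82, -3.47 and -3.10 in the wild type. Wild type replicate 2 lay among the gcn4Δ values. The changes differed by -0.29 ± 0.23 (SE, exact two-sided permutation p = 0.30, adjusted p = 0.30). Leaving out wild type replicate 2 made this difference -0.46, leaving out wild type replicate 1 made it -0.13, and leaving out gcn4Δ replicate 1 made it -0.16.

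**Figure D3:**
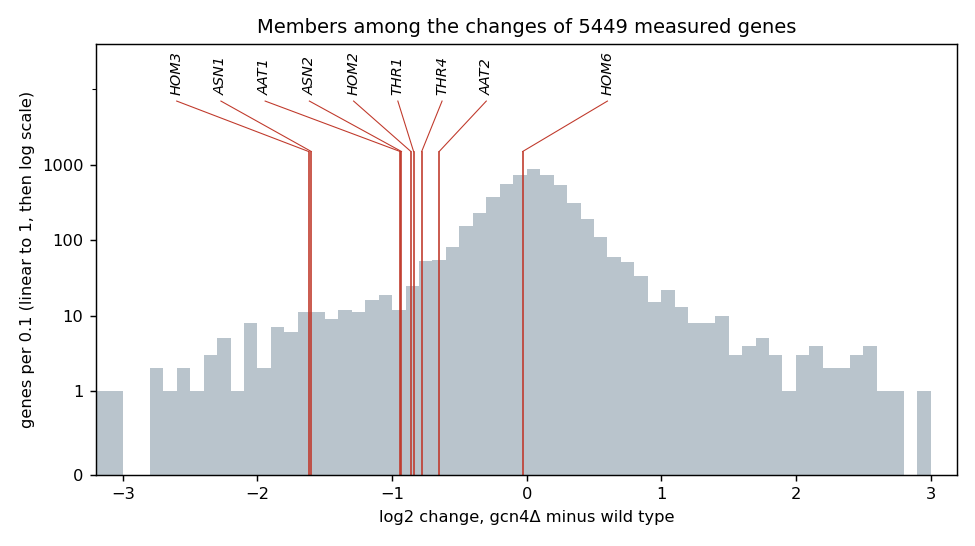
Number of genes per 0.1 of log2 change (gcn4Δ minus wild type; vertical axis linear to 1, then logarithmic) over the 5449 measured genes, with red lines at the 9 members. HOM3 and ASN1 stand at about -1.6, 6 members between -0.94 and -0.65 and HOM6 at -0.03; 8 genes below -3.2 and 1 above 3.2 lie off the axis.

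Across the 6 arrays the members other than HOM6 shared one profile, low in gcn4Δ and high in the wild type. Pearson's r of a member with the mean log2 profile of the other members was 0.93 to 1.00 for these 8 and 0.38 for HOM6. This is a description over 6 arrays that rests mostly on the difference between the 2 groups, which differ in strain and 3AT dose. Among 738 other genes with a log2 range of at least 1, the profiles most like the members' mean were those of ARO2 (chorismate synthase), MAE1 (mitochondrial malic enzyme), SDT1 (a pyrimidine nucleotidase), ILV2 (acetolactate synthase) and YMR321C. Their r was 0.999 to 1.000, and 55 of the 738 genes (7.45%) reached 0.99. ARO2 read 1430.5, 1424 and 1538 in gcn4Δ, against 3614, 3708 and 3963 in the wild type. The log2 changes of the 5 genes were -1.36, -1.42, -1.85, -1.12 and -1.62 in the order named, a direction that the choice by likeness fixed. The range of at least 1 left out genes with smaller changes. It was not asked of the members, whose median log2 change was -0.86, so the sizes are not compared.

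Of 18 annotated chromosomal neighbours of the members, 12 were measured, 1 was lower, 0 were higher and 11 did not pass, while 6.0% of all genes were lower; these neighbours were looked up after the members' values were known. The gene called was MAS2, for a subunit of the mitochondrial processing peptidase, which lies next to THR1 and is read away from it. MAS2 read 746, 928.9 and 865.3 in gcn4Δ, against 1582, 1209 and 1431 in the wild type. All its gcn4Δ arrays lay below all wild-type arrays, as for THR1, an order that 14.6% of all genes showed. A link to THR1 was not tested. The log2 change of MAS2 was -0.73 ± 0.13 (SE, adjusted p = 0.0179, limma). Leaving out gcn4Δ replicate 1 ended its call, at -0.64 (adjusted p = 0.0825), as did leaving out gcn4Δ replicate 3, at -0.75 (adjusted p = 0.0571), or wild type replicate 3, at -0.71 (adjusted p = 0.0609).

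Genes that use threonine or homoserine were called lower in part. Of 6 measured genes 2 fell, 0 rose and 4 missed the threshold, and their median log2 change was -0.31. Over all 5449 genes 6.0% were lower and 5.34% higher, with a median of 0.04. ILV1, threonine deaminase, the entry to isoleucine, read 1645, 1532 and 1811 in gcn4Δ, against 3652, 3509 and 3432 in the wild type (log2 change -1.09 ± 0.09 SE, adjusted p = 0.000693, limma). GLY1, threonine aldolase, which makes glycine, read 826.8, 1259 and 871.2 in gcn4Δ, against 2829, 1875 and 2921 in the wild type (log2 change -1.36 ± 0.23 SE, adjusted p = 0.0129, limma). Its call was lost without gcn4Δ replicate 1 (adjusted p = 0.0558) or gcn4Δ replicate 3 (adjusted p = 0.0518). MET2, which takes homoserine towards methionine, was at 0.25 ± 0.09 and did not pass (SE, adjusted p = 0.146, limma).

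Among genes that use aspartate or asparagine, 5 of 10 measured fell, 0 rose and 5 missed the threshold, and the median log2 change was -0.35. The share lower over all genes was 6.0% and their median 0.04. ARG1, argininosuccinate synthase, which joins aspartate to citrulline, read 1900, 1760 and 1962 in gcn4Δ, against 8300, 9366 and 9211 in the wild type. Its log2 change of -2.26 ± 0.09 (SE, adjusted p = 6.41e-05, limma) exceeded that of every member. ADE1, of purine synthesis, was at -0.78 and DED81, the cytosolic asparaginyl-tRNA synthetase, at -0.62 (adjusted p = 0.00746 and 0.00739, limma), DED81 losing its call without gcn4Δ replicate 1 (adjusted p = 0.0538). The other genes called were ADE12 at -0.56 and DPS1, the cytosolic aspartyl-tRNA synthetase, at -0.46 (adjusted p = 0.00584 and 0.0412, limma). DPS1 kept its call in 1 of the 6 fits that left out an array, that without wild type replicate 1 (adjusted p = 0.0846 to 0.169 in the others). Without gcn4Δ replicate 1 the count of this group was 3. The asparaginase genes ASP1 and ASP3-1 did not pass, at -0.17 and 0.17 (adjusted p = 0.37 and 0.311, limma). The probe set of ASP3-1 carries the suffix for sets shared by several genes. Its near-identical copies ASP3-2, ASP3-3 and ASP3-4 had no set of their own, so the value cannot be read as that of ASP3-1 alone.

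Genes that supply the branch with carbon and nitrogen had 3 of 9 lower, 0 higher and 6 not past the threshold, with a median of 0.18. All genes together had 6.0% lower, 5.34% higher and a median of 0.04. GLT1, glutamate synthase, read 1026, 1087 and 1638 in gcn4Δ, against 4008, 3144 and 4221 in the wild type, and changed by -1.62 ± 0.20 in log2 (SE, adjusted p = 0.00437, limma). GLN1, glutamine synthetase, was at -0.73 and PYC2, a pyruvate carboxylase that makes oxaloacetate, at -0.52 (adjusted p = 0.0044 and 0.0159, limma). The call of PYC2 was lost without wild type replicate 3 or any 1 of the gcn4Δ arrays (adjusted p up to 0.0766). The 6 genes not past the threshold all had log2 changes above 0. PYC1, the other pyruvate carboxylase gene, was at 0.27 and GDH1, for a glutamate dehydrogenase, at 0.36 (adjusted p = 0.179 and 0.0646, limma). MDH1, MDH2 and MDH3, for malate dehydrogenases, were at 0.23, 0.18 and 0.10 (adjusted p = 0.266, 0.533 and 0.613, limma). GDH3, a glutamate dehydrogenase, read 1538, 1490 and 1369 in gcn4Δ, against 164, 790.5 and 732.9 in the wild type. Its log2 change was 1.68 ± 0.57 (SE, adjusted p = 0.112, limma), and without wild type replicate 1 it passed, at 0.94 (adjusted p = 0.00212).

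Of 7 genes for the uptake or transport of these amino acids, 3 fell, 0 rose and 4 missed the threshold, and the median was -0.19. By comparison, 6.0% of all genes were lower and their median was 0.04. DIP5, the permease of aspartate and glutamate, read 622.7, 735.9 and 914.6 in gcn4Δ, against 2934, 2175 and 2531 in the wild type (log2 change -1.76 ± 0.17 SE, adjusted p = 0.00135, limma). AGP1, a broad permease that also takes up asparagine and threonine, was at -1.26 ± 0.10 (SE, adjusted p = 0.000614, limma). GNP1, another permease of glutamine and threonine, was at -0.95 ± 0.19 (SE, adjusted p = 0.0243, limma). The call of GNP1 was lost without any 1 of the gcn4Δ arrays (adjusted p up to 0.106), which left 2 genes called. FPR1, whose product binds Hom3, was not analysed here.

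**Figure D4:**
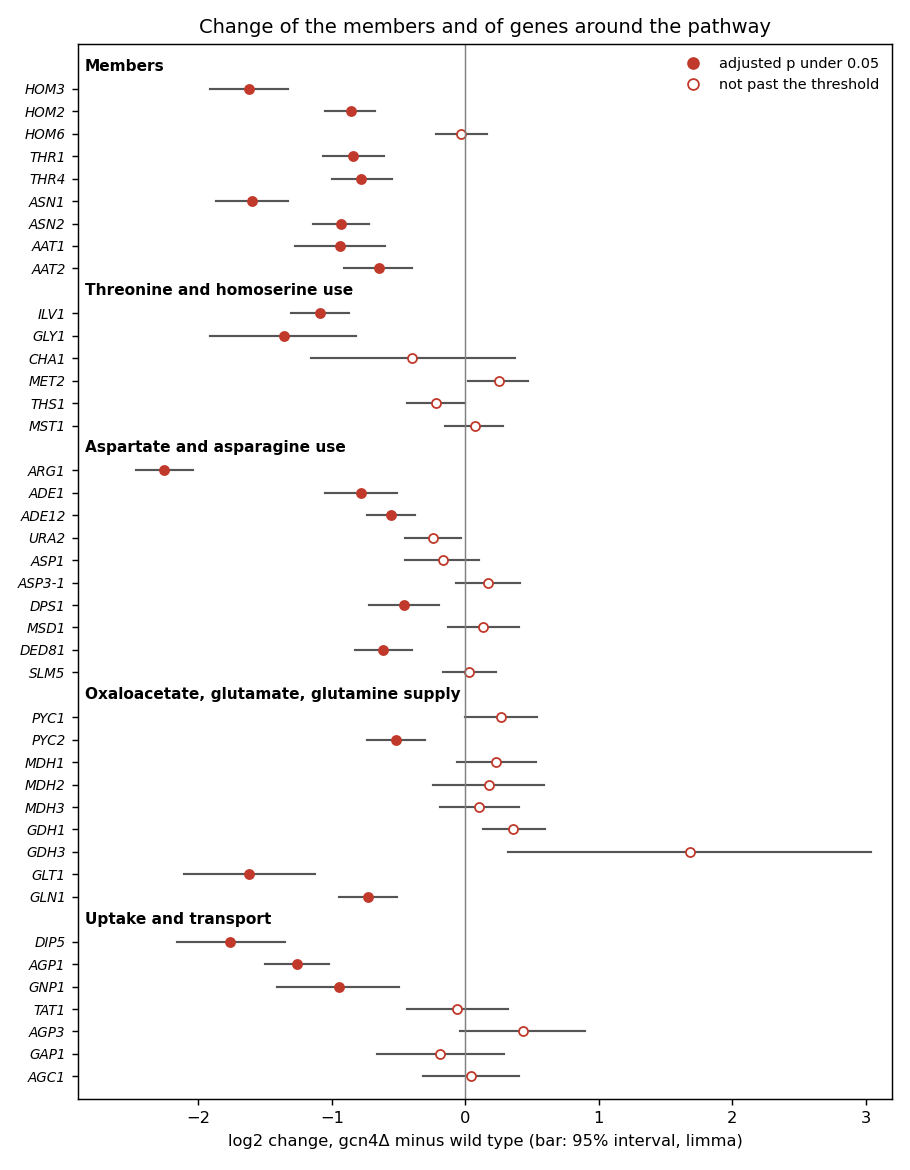
Log2 change (gcn4Δ minus wild type) with 95% interval from limma for the 9 members and for genes that use, supply or take up their metabolites, filled where the adjusted p is under 0.05. All filled points lie left of 0, and HOM6 is the member whose interval, -0.22 to 0.16, spans 0.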

How the data were processed

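RNA of 6 chemostat samples was measured, 1 array each. The authors deposited an intensity for each probe set of each array, on a linear scale and computed by RMA, as the submitters' processing notes name it; the RMA version and the array's build are not given here. RMA removes background, matches the arrays' distributions and summarises probes, which evens out changes common to most genes. Log2 was taken with no pseudocount and no further scaling. Of 10928 probe sets, 5498 matched S. cerevisiae genes through the platform annotation and the R64 gene table, covering 5449 genes, and the brightest set stood for a gene. The background level was the 95th percentile of the named probe sets that matched no S. cerevisiae gene.

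Groups were compared with limma 3.58.1 in R 4.3.3 (both groups in 1 fit, no covariates, gcn4Δ minus wild type, adjusted over 5498 probe sets, threshold 0.05), checked on simulated data. There it recovered 34.3% of log2 changes of 0.5, 92.5% of those of 1 and 100% of those of 2. Small changes can thus be missed. The simulation changed 67, 67 and 66 of 5498 probe sets by these sizes, with independent normal noise. The data had more genes called, 618, so these rates may not carry over to them. Within-array ratios were compared with exact permutation tests in scipy 1.17.1. Genes outside the 9 were named by rule: per list, the 3 called genes with the largest change, FPR1, GCN4 and the 5 most like profiles. MET2, ADE12, DPS1, ASP1, ASP3-1, PYC1, MDH1, MDH2, MDH3, GDH1, GDH3 and MAS2, and the step pairs, were added after their values were seen. The members and lists were chosen with earlier results of these data known. Alternatives were a block for the replicate number, omission of each array, quantile normalization again, median centring, a pseudocount of 16, averaging of a gene's probe sets, leaving out the lowest 25% of probe sets, trend and robust variances, array weights and a threshold of 0.01. Columns of other samples numbered 0.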

Additional observations from a re-analysis of the deposited data

How the results depend on the processing

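Under 15 alternatives, HOM3, HOM2, THR1, THR4, ASN1 and ASN2 kept a fall past the threshold and HOM6 stayed short of it. The count of members lower was 8 except for 7 without gcn4Δ replicate 2, 7 at a threshold of 0.01, where AAT2 dropped out, and 6 with the replicate number as a block, where AAT1 (adjusted p = 0.0514) and AAT2 (adjusted p = 0.0777) did. It thus ran from 7 to 8 with 1 array left out, and 0 members were higher in any fit. Same-numbered arrays did not deviate together (r = -0.34, -0.39 and -0.23 across genes), so the numbers were not taken as pairs. For differently numbered arrays r ran from -0.12 to 0.56, highest for gcn4Δ replicate 1 with wild type replicate 2. What lay behind that value was not tested. With the replicate block, 1 gene of threonine and homoserine use and 1 of aspartate and asparagine use stayed called lower. At a threshold of 0.01, 1 gene of threonine and homoserine use was. With 1 array left out these counts ran from 1 to 2 and from 3 to 5, and the count of supply genes higher from 0 to 1 (GDH3). That count was 1 with trend and robust variances (GDH1) and 2 with array weights (GDH1 and GDH3), whose estimation stopped before converging. The ASN1 minus ASN2 difference ran from -0.73 to -0.59 and the AAT1 minus AAT2 difference from -0.46 to -0.13 with 1 array left out. With the replicate block they were -0.68 (exact permutation p = 0.25) and -0.29 (exact permutation p = 0.50). Here 0.25 is the smallest p that the paired test allows, so it cannot show a weaker ASN1 minus ASN2 difference. The causes were not tested. All members were above background on all 6 arrays, as were 97.1 to 97.9% of measured genes on each array, and the number of arrays limits the precision.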

Other observations

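The array also carries probe sets named aat1 and asn1 whose genes matched no S. cerevisiae gene. The aat1 set read 8.21, 7.09 and 10.3 in gcn4Δ, against 6.59, 11.2 and 5.25 in the wild type. The asn1 set read 7.0, 8.60 and 6.28 in gcn4Δ, against 5.78, 7.40 and 6.48 in the wild type. All 12 values were below the background level of their array.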
